A study of Arabidopsis thaliana with 2 samples.

Results

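Aldehyde dehydrogenases are enzymes that oxidise aldehydes to carboxylic acids with NAD+ or NADP+ as electron acceptor. Plants use them to clear reactive aldehydes that arise from lipid peroxidation, and to carry out fixed steps of amino acid, polyamine, phenylpropanoid and sugar metabolism. The enzymes are grouped by sequence into numbered families, and the number and letter in a symbol such as ALDH10A8 give the family and subfamily. The genes described here are those whose current RefSeq symbol starts with ALDH and that have a probe set assigned to 1 gene. They are 8 of the 13356 genes read by such probe sets. The RefSeq table holds 14 genes with an ALDH symbol, in 9 families, and the 8 genes cover 7 of those families. The other 6, which are ALDH2B4, ALDH2B7, ALDH3H1, ALDH3I1, ALDH5F1 and ALDH12A1, have no probe set named as theirs in the annotation used and were not analysed here.

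The arrays compare whole Arabidopsis thaliana seedlings of the wild type, Columbia-0, with OE-N6, a transgenic line in the same background that overexpresses AT4G16790, a gene the labels call NHRGP. Both groups were harvested as 2-week-old plants, grown at 22 °C under 16 h light and 8 h dark on diluted Murashige and Skoog medium that held 2% sucrose. The light was 100 µmol per square metre per second for both. OE-N6 is a single line, and the promoter that drives the transgene is not given in the sources used here. Each genotype was read on 1 Affymetrix ATH1 array, on which a set of short probes reads each transcript, so differences lack a check by replicates, tests across samples were not possible, and precision is limited by the array number. "Higher" and "lower" below describe these 2 arrays, and every ratio is OE-N6 over wild type.

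The overexpressed gene separated the arrays as its label says. AT4G16790 gave 91.1 signal units on the wild-type array and 5171 on the OE-N6 array, at least 46.2-fold higher, because the wild-type value lay under the floor of 112 signal units to which lower values were raised. Of 5 green-tissue markers 4 were measured, with signals that summed to 47694 on the wild-type array and 48983 on the OE-N6 array. Their log2 ratios were -0.18 for LHCB4.2, 0.03 for RCA, 0.04 for PRK and 0.16 for PSAN, and their median of 0.04 changed sign with the scaling, to -0.01 with quantile and -0.05 with loess. Of 4 root markers 2 were measured, with PYK10 at 15969.7 in the wild type against 16513 in OE-N6 and EXPA18 at 188 against 290. The log2 ratio of PYK10 was 0.05 and changed sign with the scaling. That of EXPA18 was 0.62, or 1.54-fold higher, and 3.94% of the genes that passed the signal filter lay at least as far from 0. EXPA7, also a root marker, was at 155 and 196, a log2 ratio of 0.34, and did not pass this filter. No marker with a probe set was at 0. Control probe sets at the 3' end of actin, GAPDH and ubiquitin, set against those further upstream, gave a higher ratio in OE-N6 for 9 of 10 pairs, with log2 differences from -0.20 to 0.39. The pairs come from these controls alone and share probe sets, so they are not independent readings. The RNA spikes added at labelling had a mean log2 ratio of 0.10 (SD 0.18 over 22 probe sets). Spikes added at hybridisation had a mean of 0.09 (SD 0.17 over 18 probe sets). Several aldehyde dehydrogenase log2 ratios below are no further from 0 than these means. The part of tissue make-up and RNA quality in the values below was not tested. In whole seedlings, fewer cells of a type and less RNA per cell cannot be told apart.

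The signals of the 8 aldehyde dehydrogenase genes differed between the arrays by at most 1.24-fold, the difference of ALDH22A1. All 8 passed the filter on low signal, a mean of at least 192 signal units, and none was near the floor. Their log2 ratios ran from -0.23 for ALDH11A3 to 0.31 for ALDH22A1. None of the 8 reached 1.5-fold in either direction, against 4.84% of the 5862 genes that passed the filter, and none reached 2-fold, against 1.04%. With 8 genes, a count of 0 lies near those shares and is no result about the family. The median log2 ratio of the 8 was -0.06, and that of all genes -0.02.

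**Figure D1:**
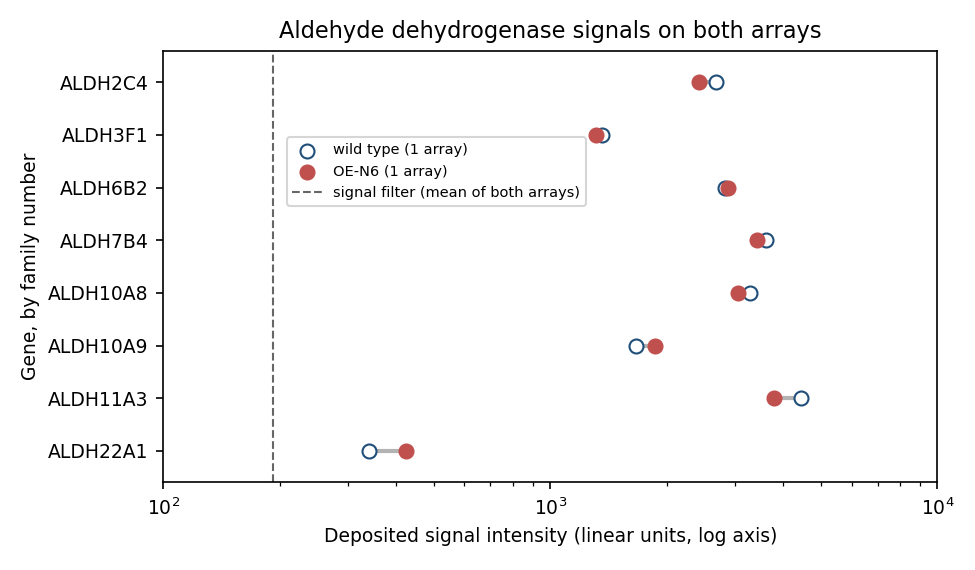
Deposited signal intensity (x axis, linear units on a log axis) of each aldehyde dehydrogenase gene (y axis, by family number) on the wild-type array (open circles) and the OE-N6 array (filled circles), 1 array each, with the signal filter as a dashed line. In every gene both points lie close together, and the widest gap on this axis is that of ALDH22A1, from 340 to 423. Levels of different genes come from different probes and are not comparable.

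In family 2, ALDH2C4 is the gene known as REF1, whose enzyme oxidises coniferaldehyde and sinapaldehyde to ferulic and sinapic acid, precursors of the sinapate esters that make leaves fluoresce. Its signal was 2675 on the wild-type array against 2425 on the OE-N6 array, a log2 ratio of -0.14, or 1.10-fold lower. It kept this direction under median, quantile and loess scaling, where the log2 ratio lay between -0.17 and -0.14. The only other measured gene of the phenylpropanoid and sinapate list was HCT, an acyltransferase of the shikimate ester branch, with signals of 2384 and 2426. CCR2, a cinnamoyl-CoA reductase, had a probe set but lay under the floor on both arrays, at 46.8 and 61.9.

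ALDH3F1 was the family 3 gene measured. Family 3 enzymes oxidise medium- and long-chain aliphatic aldehydes, such as those formed when membrane lipids are oxidised. ALDH3F1 gave signals of 1359 (wild type) and 1315 (OE-N6), a log2 ratio of -0.05. Of the genes that passed the filter, 84.3% had a log2 ratio at least as far from 0. AER, an alkenal reductase that removes reactive aldehydes by another route, was the only measured gene of the list of other aldehyde detoxification enzymes. It had signals of 995 and 1328, a log2 ratio of 0.42 or 1.33-fold higher, and 12.8% of genes lay at least as far from 0.

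ALDH6B2 encodes the mitochondrial methylmalonate-semialdehyde dehydrogenase, a CoA-dependent member of the superfamily that acts in the breakdown of valine and of pyrimidines. Its signals were 2822 (wild type) and 2874 (OE-N6), and its log2 ratio of 0.03 was the nearest to 0 of the 8 genes. The sign was not fixed, since the log2 ratio became -0.01 with quantile scaling and -0.00394 with loess. Genes that act in the breakdown of the branched-chain amino acids had more varied values. IVD, the isovaleryl-CoA dehydrogenase of leucine breakdown, had signals of 1077 and 791, 1.36-fold lower. MCCA and MCCB, the subunits of methylcrotonyl-CoA carboxylase in the same route, had log2 ratios of -0.21 and -0.10. ETFQO, which passes electrons from dehydrogenases such as IVD to the respiratory chain, had signals of 421 and 522, a log2 ratio of 0.31. With ALDH6B2 the list had 2 genes above and 3 below 0 and a median log2 ratio of -0.10. None reached 1.5-fold, against 4.84% of all genes that passed, and with so few genes this is no result about the list.

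ALDH7B4, the plant relative of animal antiquitin, is known as a gene that responds to drought, salt and abscisic acid, and its enzyme limits lipid peroxidation under stress. It gave 3598 on the wild-type array and 3426 on the OE-N6 array, a log2 ratio of -0.07, and between -0.11 and -0.07 over the 4 scalings. Of the list of osmotic and abscisic acid responses, which holds 16 loci, COR47, a dehydrin, was the only other gene measured. Its signals were 5239 and 5337, a log2 ratio of 0.03 that changed sign, to as low as -0.04, with the scaling. COR15A, a chloroplast stress protein, had signals of 123 and 130 and did not pass the filter.

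Family 10 was the only family with a pair of genes measured. Its enzymes oxidise betaine aldehyde and the aminoaldehydes that come from polyamine breakdown, and ALDH10A8 is found in plastids while ALDH10A9 is peroxisomal. ALDH10A8 gave 3287 signal units in wild-type seedlings and 3057 in OE-N6, a log2 ratio of -0.10. ALDH10A9 gave 1666 and 1861, a log2 ratio of 0.16. The paralogues thus lay on opposite sides of 0, in each of the 4 scalings, with ALDH10A8 lower than ALDH10A9 in log2 ratio by 0.26 as deposited and by up to 0.29. Probe sets that read the same gene give a scale for such a gap. In 41 genes with at least 2 probe sets past the filter, the log2 ratios of the brightest pair differed by a median of 0.19, with 0.57 at the 90th percentile. The gap of 0.26 between the paralogues lies above that median and below that percentile. The 41 genes were not matched to the paralogues in signal. No polyamine or amine oxidase of the list had a probe set of its own.

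ALDH11A3 encodes the cytosolic non-phosphorylating glyceraldehyde-3-phosphate dehydrogenase, which oxidises this sugar phosphate directly to 3-phosphoglycerate and yields NADPH. It had the lowest ratio of the 8, with 4438 signal units in wild-type seedlings and 3778 in OE-N6, 1.17-fold lower or a log2 ratio of -0.23. Under the other scalings the log2 ratio was between -0.29 and -0.23. Of all genes that passed, 37.1% lay at least as far from 0. GAPC2, the phosphorylating enzyme of cytosolic glycolysis that uses the same substrate, had signals of 16215 and 16646, and its log2 ratio ran from -0.05 to 0.04 over the scalings.

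ALDH22A1 is the single member of a plant family whose substrate is not established. It had the highest ratio of the 8, with 340 signal units in wild-type seedlings and 423 in OE-N6, 1.24-fold higher or a log2 ratio of 0.31. It lay at 0.35 under quantile and 0.36 under loess scaling. It was the 1 gene of the 8 under the 75th percentile of signal, 578. The genes that passed were ordered by mean signal and divided into 10 groups, and among the 586 genes of its group 26.3% lay at least as far from 0, 6.31% reached 1.5-fold, and the central 95% of log2 ratios ran from -0.57 to 0.67.

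**Figure D2:**
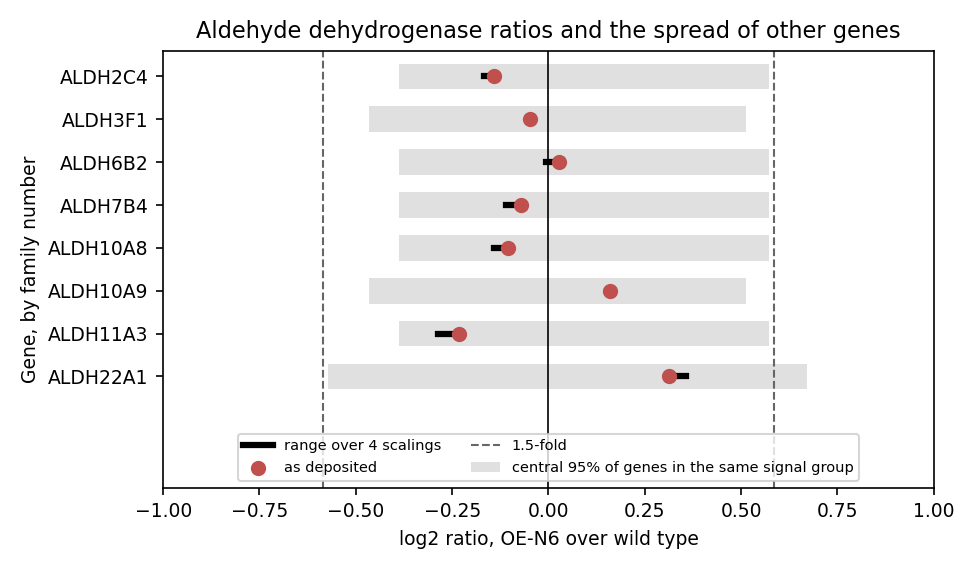
log2 ratio of OE-N6 over wild type (x axis) of each aldehyde dehydrogenase gene (y axis). Points are the deposited values, black bars the range over 4 scalings, grey bars the central 95% of log2 ratios among genes of the same signal group, which describes genes and is no error bar, and dashed lines 1.5-fold. All 8 points lie inside their grey bars, and the black bar crosses 0 for ALDH6B2 alone.

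Set side by side, ALDH6B2, ALDH10A9 and ALDH22A1 lay above 0 and the other 5 genes below, where 46.8% of all genes lay above and 53.2% below. Under quantile and loess scaling ALDH6B2 fell below 0, giving 2 above and 6 below. The 8 log2 ratios had an SD across genes of 0.18, and those of all genes an SD of 0.31, neither of which is an error of measurement. Of the 8 genes 5 fell in the brightest of the 10 signal groups, in which 2.56% of genes reached 1.5-fold, and ALDH3F1 and ALDH10A9 in the next, with 2.22%. Those shares are below the 4.84% over all groups. Over the dimmest group the share was 7.16%. The widest gap among the genes, between ALDH11A3 and ALDH22A1, was 0.55 in log2 ratio.

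**Figure D3:**
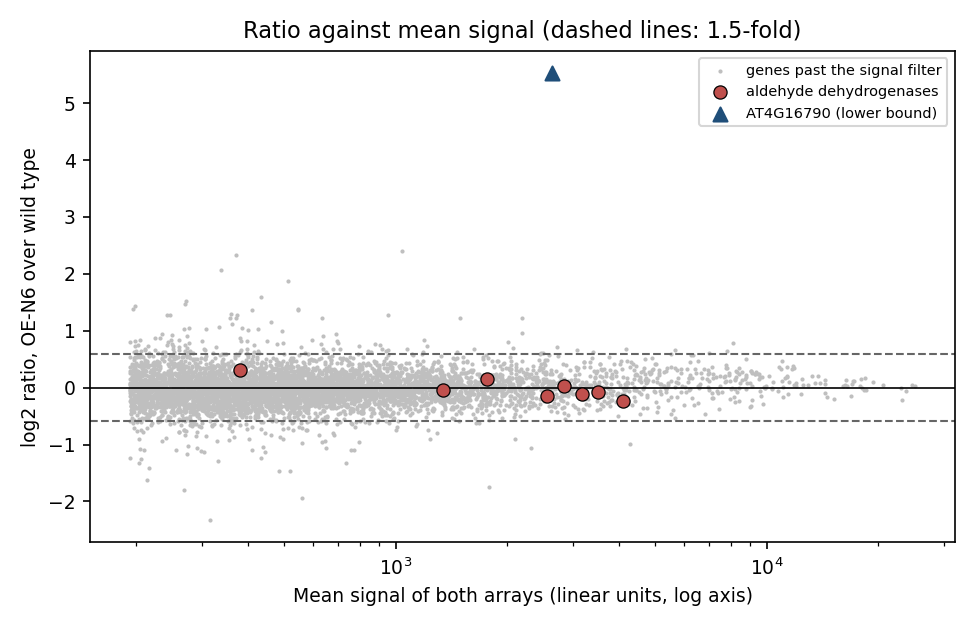
log2 ratio of OE-N6 over wild type (y axis) against the mean signal of both arrays (x axis, linear units on a log axis) for the 5862 genes past the signal filter (grey), the 8 aldehyde dehydrogenases (filled circles) and AT4G16790 (triangle, a lower bound). The 8 circles lie between the dashed lines at 1.5-fold, 7 of them at a mean signal of 1337 or more and ALDH22A1 at 382.

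The pathways that lead into or out of these reactions were only thinly covered. Over 9 lists of linked pathways, 87 loci other than the aldehyde dehydrogenases were listed. Of these 13 had a probe set of their own with a matching name and 11 passed the filter, 6 with log2 ratios above 0 and 5 below as deposited, of which GAPC2 and COR47 changed sign with the scaling. None of the 11 reached 1.5-fold, and their median was 0.03. Over all genes that passed, 4.84% reached 1.5-fold, with 46.8% above 0 and 53.2% below. With 11 genes, these counts lie near those shares and are no result about the pathways. PDC2, a pyruvate decarboxylase that makes acetaldehyde, had the log2 ratio furthest from 0, at -0.51, with signals of 2448 (wild type) and 1718 (OE-N6). Of all genes that passed, 7.25% lay at least as far from 0. ACS, the acetyl-CoA synthetase that uses the acetate formed from acetaldehyde, had signals of 1250 and 1396, a log2 ratio of 0.16. The family 2 genes that link PDC2 to ACS, ALDH2B4 and ALDH2B7, are among those not analysed here. In proline metabolism DELTA-OAT, an ornithine aminotransferase whose product is the substrate of ALDH12A1, had signals of 921 and 848. No gene of the GABA shunt list, which includes ALDH5F1, had a probe set of its own.

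**Figure D4:**
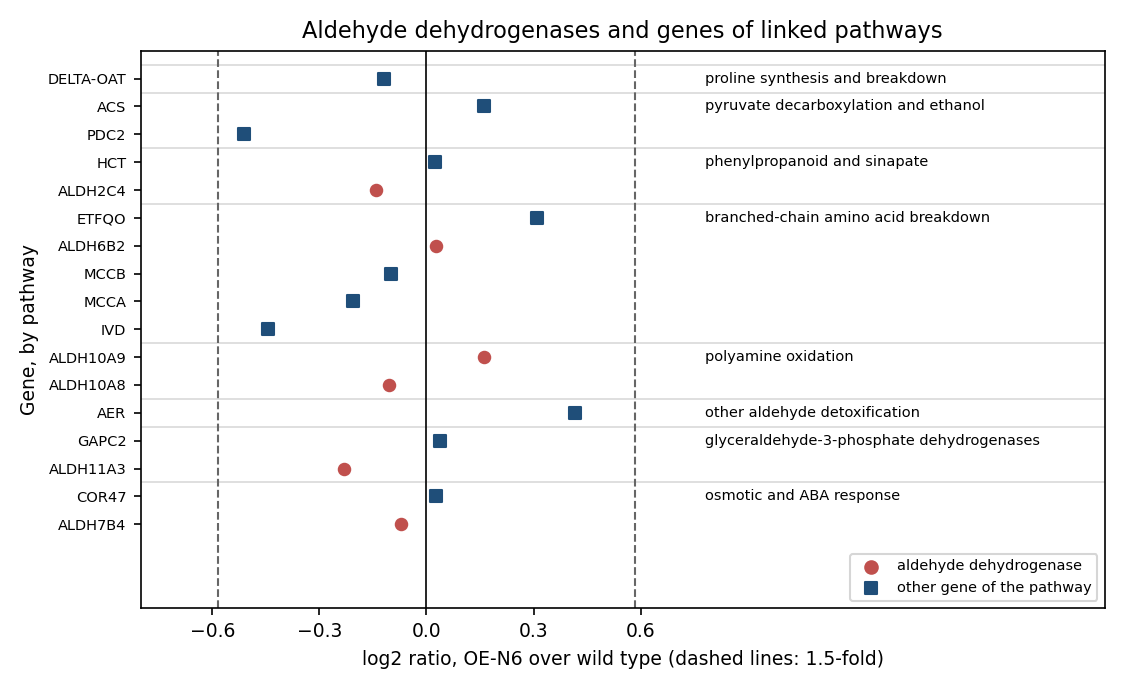
log2 ratio of OE-N6 over wild type (x axis) of the aldehyde dehydrogenases (circles) and of the other measured genes (squares) of 8 linked pathway lists (y axis, names at right), with dashed lines at 1.5-fold. No gene lies past 1.5-fold, against 4.84% of all genes that passed the signal filter. PDC2 at -0.51 and IVD at -0.45 lie furthest below 0, and AER at 0.42 furthest above.

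The genes are spread over the genome, and few of their neighbours could be read. Of the 16 protein-coding genes that flank the 8 in the RefSeq order, 7 had a probe set of their own and 3 passed the filter. AT1G74910, beside ALDH10A8, had a log2 ratio of 0.05, AT2G24280, beside ALDH11A3, -0.15, and AT3G24506, beside ALDH2C4, 0.23. Each of the 8 genes was read by 1 probe set, so none has a second reading on the same array. Their identifiers all carry the plain suffix that the manufacturer gives to probe sets designed for 1 gene. RefSeq lists between 1 and 4 transcripts per gene, with 4 for ALDH11A3 and 3 for ALDH6B2, and a probe set gives 1 value over the transcripts that its probes match.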

How the data were processed

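Total RNA (6 µg per sample, labelled with biotin, per the labels' protocols) from 1 sample per genotype was read on ATH1 arrays. The deposited table gives linear signal intensity, 1 value per probe set, made with MAS5, per the submitters' processing notes (version and settings: not given in the sources used here). Deposited intensity had a trimmed mean of 500.045 (wild type) and 500.049 (OE-N6) without the highest and lowest 2%. Scaling of this kind can mask a shift common to most transcripts.

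Of 22746 non-control probe sets, 13513 have 1 gene, 503 several, and 8730 are not listed and unnamed here. Of the 13513, 13436 matched RefSeq (TAIR10.1), which was used for names and gene order only. The brightest probe set per gene was kept. Genes passed at a mean signal of at least the median (192), a floor was set at the 40th percentile of all signals (112), and the log2 ratio was taken. Counts used 1.5-fold and 2-fold. The procedure was tested on simulated data. Without replicates, no p-value is given.

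The members and lists were chosen with earlier results of these data known. Every member was named, with the target, and from each list the measured genes with the highest and lowest log2 ratio, or all where 4 or fewer were measured. MCCA, MCCB, CCR2, COR15A, EXPA7 and the flanking genes were named outside this rule. AT5G38710 and AT4G20930 were left out because the listed name did not match the table. Alternatives were median, quantile and loess scaling, the filter left out or set at the 75th percentile, the floor left out or set at the 25th, a pseudocount of 7.89, the mean over probe sets, the mean in place of the members' median, and members under the filter kept. Tools were Python 3.11.15, numpy 2.4.6, pandas 2.3.3, statsmodels 0.14.6 and matplotlib 3.10.9.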

Additional observations from a re-analysis of the deposited data

How the results depend on the processing

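A log2 ratio was counted as moved when it shifted by at least 0.19, the median gap between probe sets of 1 gene, and a count when it changed by more than 1.5 times. A log2 ratio nearer 0 than that could change sign and still not count as moved. ALDH6B2 and the median of the green-tissue markers did so under quantile and loess scaling. The median of the osmotic and abscisic acid list did so without the filter, from -0.02 to 0.03. Of 244 values recomputed for 27 results under 11 alternatives, 239 did not move. These include values that the alternative could not change, so the count is no measure of stability. The log2 ratio of each aldehyde dehydrogenase and the counts of 0 at 1.5-fold and 2-fold did not move under any alternative that gave a value. The median of these genes lay between -0.08 and -0.06, with a mean of -0.01. All 8 passed the filter, had signals above the floor and had 1 probe set each. Changes of filter or floor and the mean over probe sets thus could not alter their log2 ratios or the counts of 0, and are no check on them. Median scaling shifted each by the same small amount. A filter at the 75th percentile removed ALDH22A1 and kept 2683 of 5862 genes, with 6 genes higher and 6 lower at 2-fold, and 49 higher and 38 lower at 1.5-fold, from 32, 29, 143 and 141. It tests fewer genes and leaves out the dimmer ones, of which more reached 1.5-fold (7.16% in the dimmest of 10 signal groups and 2.56% in the brightest). It also left 1 root marker, with a median of 0.0482 in place of 0.33. No paired analysis was possible because there is 1 array of each genotype. Low signal limits the data: ALDH22A1 was the dimmest of the 8, and CCR2 lay under the floor on both arrays.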
